A study of Mus musculus with 6 samples.

Results

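The high endothelial venule genes described here are Glycam1, Fam3d, Chst4, Fut7 and Madcam1, 5 of the 56980 genes that the deposited tables list, and they were taken by gene symbol. The choice of this set, and of Glycam1 and Fam3d as its leading genes, was made with values of these libraries known, so the levels of these genes by age in endothelial nuclei are a description, and the test values beside them support nothing further. The data were single-nucleus RNA sequencing (snRNA-seq) counts from white adipose tissue of female C57BL/6J mice, with no transgene or treatment. Inguinal subcutaneous adipose tissue (SAT) was sampled at 2 months (SAT 2M, 2 libraries) and 24 months (SAT 24M, 2 libraries), and the gonadal pad, a visceral depot (VAT), at 24 months only (VAT 24M, 2 libraries). The ages are those of the sample labels; the text of the series gives a somewhat higher age for the older mice. Tissue was taken from 2 mice of each age, but the labels do not say which SAT and VAT libraries came from the same mouse, and the p-values measure the spread between these libraries only. The comparison of SAT 24M with SAT 2M asked what changes with age within 1 depot, and that of VAT 24M with SAT 24M what differs between depots.

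High endothelial venules are the vessels through which lymphocytes leave the blood to enter lymph nodes. Their endothelial cells coat mucin-like proteins with sulphated, fucosylated and sialylated sugar chains, which lymphocytes bind. Glycam1 is such a mucin, secreted rather than anchored, and is also made by lactating mammary epithelium. Madcam1 is a mucosal addressin bound by the integrin of Itga4 and Itgb7 chains, Chst4 is a sulphotransferase that adds the sulphate of the ligand, and Fut7 is a fucosyltransferase that completes it and also acts in leukocytes. Fam3d codes for a small secreted protein of the FAM3 family. The mouse inguinal fat pad carries a lymph node, and its female form also holds mammary gland.

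All 5 genes were found in the annotation of the files' build, GRCm39 (GENCODE M39), as protein-coding genes. Glycam1 (ENSMUSG00000022491) lies on chromosome 15 from 103471186 to 103473515 on the minus strand, with 4 exons in its canonical transcript. Fam3d (ENSMUSG00000021749) lies on chromosome 14 from 14091019 to 14120837 on the plus strand with 10 exons. Chst4 (ENSMUSG00000035930) lies on chromosome 8 from 110753551 to 110766372 on the minus strand with 2 exons. Fut7 (ENSMUSG00000036587) lies on chromosome 2 from 25313266 to 25316386 on the plus strand with 4 exons. Madcam1 (ENSMUSG00000020310) lies on chromosome 10 from 79500209 to 79504371 on the plus strand with 5 exons. Only Fam3d overlaps another annotated gene, 2610318M16Rik on the opposite strand, which had 0 UMIs in endothelial nuclei and 20 in all kept nuclei. Whether counting used strand is not given in the sources used here.

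The sequences upstream of the 2 mucin-like members are shown because these genes, both known from high endothelial venules, were read out in different nuclei of these libraries. They are the 250 bases before the RefSeq transcription start, from a table of build GRCm38.p6, 5′ to 3′ on the gene's strand, at chr15:103565082-103565331 (minus strand) for Glycam1 and chr10:79664309-79664558 (plus strand) for Madcam1. Capitals mark matches, on either strand, to the ETS motif CAGGAA, the STAT motif TTCNNNGAA and the NF-kB motif, which is GGG followed after any 2 bases by TTTCC. The motifs did not overlap in these windows.
Glycam1: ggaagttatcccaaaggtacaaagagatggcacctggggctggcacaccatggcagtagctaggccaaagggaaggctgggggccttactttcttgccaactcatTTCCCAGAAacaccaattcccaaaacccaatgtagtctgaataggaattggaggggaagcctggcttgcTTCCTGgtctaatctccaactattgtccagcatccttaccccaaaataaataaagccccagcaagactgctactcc
Madcam1: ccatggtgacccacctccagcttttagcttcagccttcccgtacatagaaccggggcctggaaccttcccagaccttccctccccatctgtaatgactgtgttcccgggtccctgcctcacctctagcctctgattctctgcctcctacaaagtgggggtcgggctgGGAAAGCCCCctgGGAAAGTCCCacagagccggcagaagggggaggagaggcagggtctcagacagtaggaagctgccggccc
The Glycam1 window held 1 match to the ETS letters and 1 to the STAT letters, which occur in 25.7% and 7.02% of the 32851 promoter windows of this length. The Madcam1 window held 2 matches to the NF-kB letters, which occur in 1.41% of the windows. The matches are a description of letters and not of bound sites. The table held windows for 4 of the 5 genes, with none for Fam3d.

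The 6 libraries held 50859 barcodes, of which 27074 nuclei passed the filters (2490 to 5776 per library, with 5262801 to 11480055 UMIs). A UMI is a molecular tag that counts 1 captured RNA molecule, and levels are given as UMIs per 1000000 (CPM) of the library or of a class of nuclei in it. Although the labels call the samples adipocytes, nuclei fell into adipocyte (7243), immune (8851), epithelial (2647), mesothelial (1960), fibro-adipogenic progenitor (FAP, 1874), endothelial (1216), smooth muscle or pericyte (639) and smaller or unnamed classes, found by clustering without the 5 genes. Names rest on clusters rebuilt here. SAT 2M libraries stood apart by lymphoid genes, and VAT 24M replicate 2 by genes of the ovary and oviduct. A list of 9 lymph node stroma and naive lymphocyte genes summed to 1304 and 1446 CPM in SAT 2M, 312 and 129 CPM in SAT 24M and 73.0 and 292 CPM in VAT 24M. A list of 6 ovary or oviduct genes summed to 2446 CPM in VAT 24M replicate 2 and to 15.4 to 31.5 CPM in the other 5 libraries. At most 0.769% of the barcodes of a library were shared with another.

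Over the kept nuclei of the 6 libraries together, each member had most of its UMIs in a different class of nuclei. Of 1514 Glycam1 UMIs, 81.8% were in endothelial nuclei. Of 249 Fam3d UMIs, 52.6% were in epithelial and 19.7% in endothelial nuclei. Mesothelial nuclei held 71.4% of the 224 Chst4 UMIs, immune nuclei 74.5% of the 188 Fut7 UMIs, and FAP-named nuclei 63.2% of the 114 Madcam1 UMIs. The split of Fam3d rests on VAT 24M replicate 2, which held 127 of its epithelial UMIs. Within SAT 2M, endothelial nuclei held 83.3% of 1488 Glycam1, 65.8% of 73 Fam3d, 35.7% of 14 Chst4, 8.40% of 119 Fut7 and 1.14% of 88 Madcam1 UMIs.

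**Figure D1:**
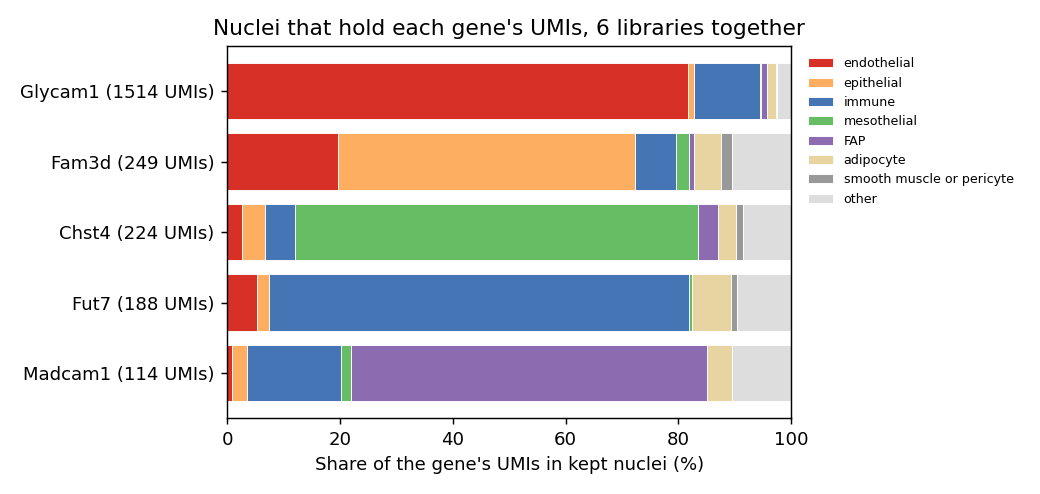
Share of each gene's UMIs (x axis, %) by the class of nuclei that held them, over the kept nuclei of 6 libraries together. The gene's UMIs are given beside its name. Glycam1 is mostly endothelial (81.8%), Chst4 mesothelial (71.4%), Fut7 immune (74.5%) and Madcam1 FAP-named (63.2%), while Fam3d is split.

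Glycam1 was present in endothelial nuclei at 2 months and was not detected in them at 24 months in either depot. The 57 and 45 endothelial nuclei of SAT 2M replicates 1 and 2 held 975 and 264 Glycam1 UMIs, or 9187 and 3583 CPM. The 102 and 612 endothelial nuclei of SAT 24M held 0 and 0, as did the 185 and 215 of VAT 24M. The mean of SAT 2M was 6385 ± 3963 CPM (SD, n = 2). The endothelial class was not pure: it held sub-clusters led by genes of adipocytes (Cfd and Retn in 164 nuclei, Ghr and Tshr in 133), smooth muscle or pericytes (Acta2 and Myh11, 84 nuclei), macrophages (76), fibroblasts (43), T cells (21) and red blood cells (19). Together these were 13 and 14 of the endothelial nuclei of SAT 2M, 26 and 366 of SAT 24M and 96 and 25 of VAT 24M. Without them Glycam1 had 12280 and 5364 CPM in SAT 2M and 0 UMIs in the other 4 libraries. Over the 1818936 UMIs of SAT 24M endothelial nuclei, 3 UMIs correspond to 1.65 CPM. If each UMI were an independent count, the level was at least 3871-fold lower at 24 months. In SAT 2M, however, 10 nuclei held 1238 of the Glycam1 UMIs, so counting error allows a smaller fold than this bound and those below. Counted by nuclei, 0 of 714 in SAT 24M had a Glycam1 UMI, which allows up to 0.420% at 3 counts. The bound by UMIs rests mainly on SAT 24M replicate 2, which gave 1599783 of the 1818936. It was 466-fold without that library, 2172-fold without SAT 2M replicate 1 and 1768-fold without the sub-clusters led by genes of other cell types. By the same count of UMIs, the level of SAT 2M was at least 1499-fold above that of VAT 24M, where 3 UMIs correspond to 4.26 CPM. This bound was 1330-fold without those sub-clusters, and was not computed with 1 library left out. The pair differs in both depot and age.

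In edgeR's quasi-likelihood test on sums per library, Glycam1 had a fitted log2 difference of -14.21 (24 against 2 months; a size that depends on the prior count) with a Benjamini-Hochberg adjusted p of 0.0182. Of 7838 genes tested in endothelial nuclei, 2 were called, or 0.0255%, and these were Glycam1 and Fam3d. The call on Glycam1 was lost with DESeq2 (adjusted p = 0.157) and in edgeR without SAT 2M replicate 1 (adjusted p = 0.150) or with the replicate number as a block (adjusted p = 0.0734). It stayed without the single nucleus that held most UMIs (log2 difference -12.99, edgeR adjusted p = 0.0132). The depots at 24 months could not be compared, since both held 0 UMIs. In sums over a class, fewer cells of a type and less RNA per cell cannot be told apart.

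The Glycam1 signal came from few nuclei. Of the 102 endothelial nuclei of SAT 2M, 10 had at least 5 Glycam1 UMIs. These 10 held 1238 UMIs, 81.8% of those in the kept nuclei of all libraries. In replicate 1, 4 nuclei had 781, 82, 74 and 38 UMIs. In replicate 2, 6 nuclei had 179, 29, 15, 15, 15 and 10 UMIs. No endothelial nucleus lay between: the lowest of the 10 had 10 UMIs and the only other positive one had 1. The richest nucleus held 51.6% of the Glycam1 UMIs of all kept nuclei, where they made up 12.6% of its 6197 UMIs.

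**Figure D2:**
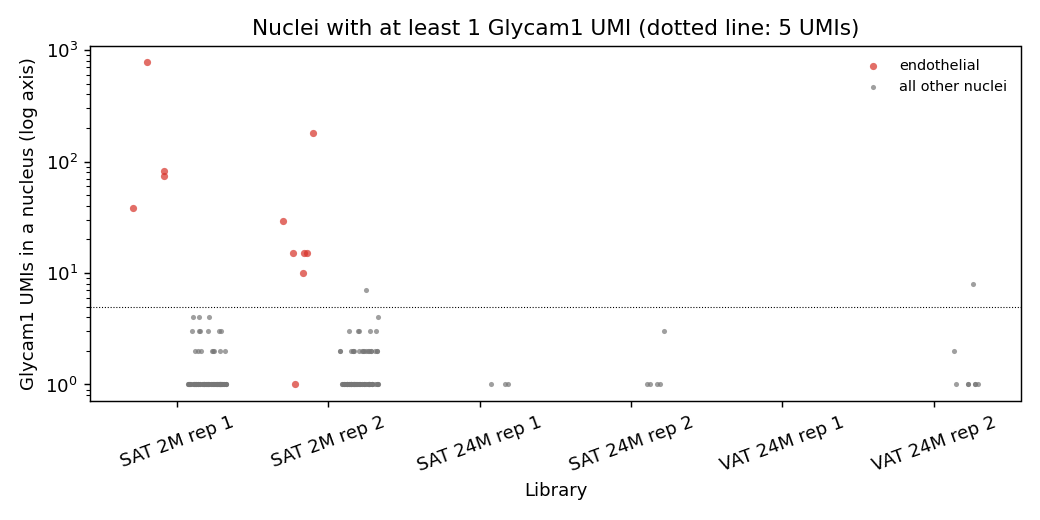
Glycam1 UMIs in each nucleus with at least 1 (y axis, log), by library (x axis), for endothelial nuclei (red) and all others (gray); the dotted line marks 5 UMIs. The 10 endothelial nuclei with 10 to 781 UMIs are all from SAT 2M, and most other positive nuclei have 1 UMI.

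As a share of nuclei, 4 of 57 (7.02%, 95% Clopper-Pearson interval 1.95 to 17.0%) and 7 of 45 (15.6%, 6.49 to 29.5%) endothelial nuclei of SAT 2M had a Glycam1 UMI. In SAT 24M it was 0 of 102, which allows up to 2.94% at 3 counts (Clopper-Pearson upper end 3.55%), and 0 of 612, which allows up to 0.490% (0.601%). In VAT 24M it was 0 of 185, which allows up to 1.62% (1.97%), and 0 of 215, which allows up to 1.40% (1.70%). These intervals and limits cover counting error only, and the endothelial nuclei were not equally pure. Sub-clusters led by genes of other cell types made up 22.8% and 31.1% of them in SAT 2M. Such sub-clusters made up 25.5% and 59.8% in SAT 24M and 51.9% and 11.6% in VAT 24M. In adipocyte nuclei, which should lack the gene, the shares were 1.45% and 1.19% in SAT 2M and 0% and 0.0466% in SAT 24M, at median depths of 1840, 1575, 1787 and 1977 UMIs, against 1562, 1296, 1804 and 2002 UMIs in the endothelial nuclei. Thinning each nucleus to 1000 UMIs left the endothelial shares at 7.02%, 15.6%, 0% and 0%. The difference of mean shares was -11.3 percentage points, with an exact two-sided permutation p of 0.33, the smallest that 2 against 2 libraries allow.

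The 10 nuclei carried endothelial RNA. They had 9 of 10 endothelial marker genes, all but Egfl7, at a summed 6135 CPM, against 4293 CPM in the 92 other endothelial nuclei of the same 2 libraries. None of 6 lymphatic endothelial markers was detected (1779 CPM in the others), and capillary markers summed to 944 CPM against 9046 CPM. Venous markers summed to 891 CPM against 821 CPM, and arterial markers to 577 CPM against 516 CPM. Skeletal muscle markers summed to 472 CPM (9 UMIs, 2 of 8 markers detected) against 149 CPM. Immune markers summed to 1206 CPM (9 of 10 detected) against 2258 CPM, while secretory mammary luminal markers summed to 420 CPM (8 UMIs, 3 of 8 markers detected, with Elf5 and Csn2 at 0) against 106 CPM (also with Elf5 and Csn2 at 0). The part of these markers in the values was not tested. Their median depth was 1256 UMIs, against 1516 in the others.

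Other members of the set were in the same nuclei. Fam3d had 48 UMIs in 8 of the 10 nuclei and 1 UMI in the 1206 other endothelial nuclei of all libraries. Fut7 had 10 UMIs in 3 of the 10 nuclei, 7 of them in the richest, and 0 elsewhere in the endothelium. Chst4 had 5 UMIs in 4 of the 10 and 1 elsewhere. Madcam1 had 0 in the 10 nuclei and 1 elsewhere. The 10 nuclei were chosen by Glycam1, so these counts and those that follow are descriptions with no test.

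Beyond the members, Ccl21a and Enpp2 led these nuclei. Ranked by the smaller of the ratios in the 2 libraries, among 99 genes with at least 5 UMIs in both, Glycam1 was followed by Ccl21a, a chemokine that draws naive lymphocytes and is also made by lymphatic endothelium, with 93 UMIs in 6 nuclei (4877 CPM against 49.8 CPM in the other endothelial nuclei). Fam3d came next (2517 CPM against 0 UMIs), and then Enpp2, the secreted lysophospholipase autotaxin, with 43 UMIs in 9 nuclei (2255 against 87.1 CPM). Hap1 (1206 against 124 CPM) and Pecam1, a junction protein of all endothelium (2727 against 883 CPM), followed. Among enzymes that build these sugar chains, Gcnt1, which starts the branched sugar chain, had 7 UMIs in 6 nuclei (367 against 18.7 CPM), and Chst2, a second sulphotransferase, had 3 UMIs in 2 nuclei of replicate 2 and 0 in replicate 1 (157 against 12.4 CPM). The other enzymes of the list did not all lie higher: the galactosyltransferase B4galt1 had 52.4 against 137 CPM, B3gnt3 had 0 against 2 UMIs, Fut4 had 0 in both, and the sialyltransferase St3gal4 had 577 against 336 CPM with 1 UMI in replicate 1 and 10 in replicate 2. The scaffold Cd34 had 524 against 112 CPM, while Podxl and Selp had 0 UMIs in the 10 nuclei against 19 and 16 UMIs in the others.

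**Figure D3:**
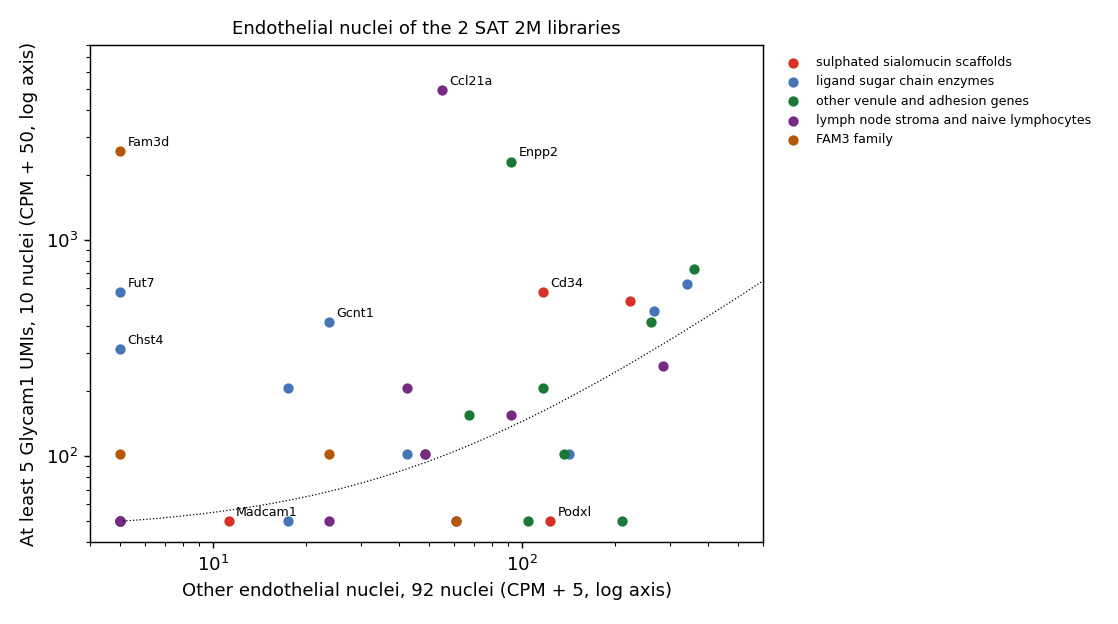
Levels in the 10 endothelial nuclei with at least 5 Glycam1 UMIs (y axis, CPM + 50, log) against the 92 other endothelial nuclei of the same SAT 2M libraries (x axis, CPM + 5, log), for genes of 5 lists in colors; the dotted line marks equal CPM. Fam3d (2517 CPM), Ccl21a (4877 CPM) and Enpp2 (2255 CPM) lie highest; Glycam1, which chose the nuclei, is left out.

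All 10 nuclei fell in 1 endothelial sub-cluster of 77 nuclei, found without the 5 genes and left unnamed because its markers did not pass the naming rule. Its nuclei numbered 4, 6, 4, 24, 3 and 36 in SAT 2M replicates 1 and 2, SAT 24M replicates 1 and 2 and VAT 24M replicates 1 and 2. The nuclei of the 24-month libraries in it had 0 Glycam1 UMIs and 1 Fam3d UMI.

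Outside the endothelium, Glycam1 lay between 4.88 and 19.4 CPM in each other named class of SAT 2M in which it was detected. The nuclei other than endothelial had 12.4 and 12.7 CPM in SAT 2M, 0.595 and 0.708 CPM in SAT 24M and 0 and 1.62 CPM in VAT 24M. Within SAT 2M, replicates 1 and 2 had 19.4 and 15.9 CPM in immune, 9.91 and 12.8 CPM in FAP, 7.53 and 10.2 CPM in adipocyte, 5.10 and 10.5 CPM in smooth muscle or pericyte nuclei (1 and 3 UMIs) and 4.88 and 6.14 CPM in epithelial nuclei. Barcodes that failed the filters had 25.7 and 26.3 CPM there, and 1.32 to 7.86 CPM in the older libraries.

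**Figure D4:**
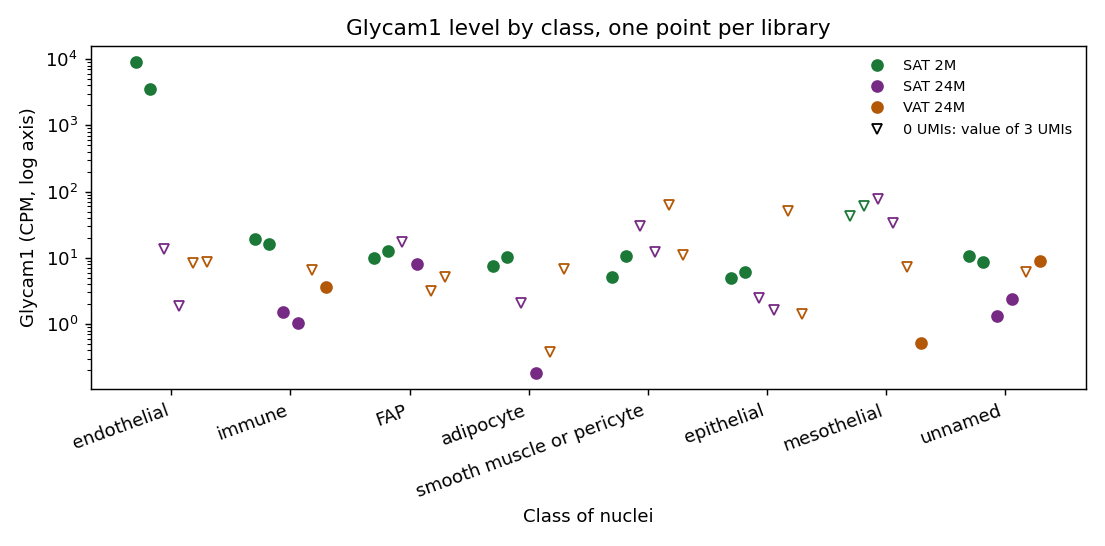
Glycam1 level (y axis, CPM, log) by class of nuclei (x axis), 1 point per library, colored by group; open triangles mark libraries with 0 UMIs at the value of 3 UMIs. Endothelial nuclei of SAT 2M (9187 and 3583 CPM) lie far above every other class drawn, where SAT 2M ranges from 4.88 to 19.4 CPM except for mesothelial nuclei with 0 UMIs. Skeletal muscle nuclei (0 UMIs in 3 and 5 nuclei of SAT 2M) are not drawn.

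Epithelial nuclei, which include mammary luminal cells, had 9 and 7 Glycam1 UMIs in SAT 2M (4.88 and 6.14 CPM, below the 7.53 and 10.2 CPM of adipocyte nuclei) and 0 and 0 in SAT 24M. After thinning to 1000 UMIs, no epithelial nucleus kept a Glycam1 UMI. Secretory luminal nuclei had 0 and 1 UMIs in SAT 2M, and hormone-sensing luminal nuclei, at 933637 and 507539 UMIs of depth, had 7 and 3. The gene was too low for the edgeR filter in this class, and without a filter its edgeR adjusted p was 0.0698 (log2 difference -5.93). Whether the age difference of Glycam1 itself differed between epithelial and endothelial nuclei could not be fitted, since both classes held 0 UMIs at 24 months. For Fam3d that difference was 9.63 ± 3.71 (log2, SE, edgeR adjusted p = 0.339), in a test that called 0.757% of 13736 genes. In SAT 24M, endothelial nuclei held 0 and epithelial nuclei 1 Fam3d UMI, so this size depends on the prior count.

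Milk protein and prolactin genes were examined beside Glycam1, because Glycam1 is a milk mucin. In epithelial nuclei, 0 of 11 tested milk protein and secretory luminal genes were called between SAT 24M and SAT 2M (edgeR; 6 had an unadjusted p under 0.05), with a median log2 difference of 1.29 beside 0.02 over all 13390 genes, of which 0.620% were called (0.388% lower). Of 6 prolactin signal genes, 1 fell: Stat5a, a transcription factor of the prolactin receptor pathway, had 123 ± 35.1 CPM at 24 months and 897 ± 179 CPM at 2 months (SD, n = 2 each; log2 difference -2.86, edgeR adjusted p = 0.0332). The Stat5a call was lost without any 1 of the 4 SAT libraries (adjusted p = 0.395 and 0.144 without SAT 2M replicates 1 and 2, and 0.511 and 0.639 without SAT 24M replicates 1 and 2) and with the replicate block (0.0523). Secretory luminal nuclei were 124 of 428 and 125 of 318 epithelial nuclei in SAT 2M and 214 of 365 and 292 of 547 in SAT 24M. Sub-clusters led by T cell genes (22, 26, 12 and 10 nuclei in SAT 2M replicates 1 and 2 and SAT 24M replicates 1 and 2) and B cell genes (21, 16, 12 and 11) also lay in the class. Of 7 lymph node genes tested in it, edgeR called 2 lower, with a median log2 difference of -2.58. The part of these nuclei and genes in the Stat5a and milk gene values was not tested.

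Adipocyte nuclei had 14 and 9 Glycam1 UMIs in SAT 2M and 0 and 1 in SAT 24M, and the edgeR test there gave a log2 difference of -5.45 (adjusted p = 0.0136). It called 13.6% of 12991 genes, 7.10% as lower. The same fit called Ccr7, the receptor of Ccl21, lower (2.92 ± 0.220 against 25.6 ± 10.3 CPM, SD, n = 2 each; edgeR adjusted p = 0.00954, and 0.170 without SAT 2M replicate 2). It also called 4 of 6 lymph node genes lower, among them Ighd, the heavy chain of IgD (17.0 ± 5.19 against 159 ± 52.8 CPM). The part of free lymphoid RNA in these values was not tested. The Glycam1 call was lost without SAT 2M replicate 2, SAT 24M replicate 1 or SAT 24M replicate 2. Without SAT 2M replicate 1, Glycam1 was too low for the edgeR filter and was not tested.

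Summed over all nuclei, Glycam1 had 1096 and 392 UMIs in SAT 2M (111 and 38.5 CPM), 3 and 7 in SAT 24M (0.570 and 0.610 CPM) and 0 and 16 in VAT 24M (0 and 1.57 CPM). For age in SAT, the log2 difference of -6.72 ± 1.31 (SE) had an edgeR adjusted p of 0.601. That fit called 0 of 21729 genes, or 0%, with 1794 at an unadjusted p under 0.05, whereas DESeq2 called 292 genes and gave Glycam1 an adjusted p of 1.25e-06. Between depots the log2 difference was 0.27 ± 1.30 (edgeR adjusted p = 0.991, with 0.0138% of genes called), and it turned to -5.59 without VAT 24M replicate 2. The lymph node list given above moved with age in the same libraries, and its part in the Glycam1 difference was not tested.

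Fam3d in endothelial nuclei followed Glycam1. It had 23 and 25 UMIs in SAT 2M (217 and 339 CPM), 0 and 0 in SAT 24M and 0 and 1 in VAT 24M. The mean of SAT 2M was 278 ± 86.7 CPM (SD, n = 2). If each UMI were an independent count, that was at least 169-fold above SAT 24M. This bound was 20.3-fold without SAT 24M replicate 2, and 80.1-fold without the sub-clusters led by genes of other cell types. The 48 UMIs of SAT 2M lay in 8 nuclei, so counting error allows a smaller fold than these bounds. The edgeR test gave Fam3d an adjusted p of 0.0228 (fitted log2 difference -9.67). The call was lost without SAT 2M replicate 1 (adjusted p = 0.210), SAT 2M replicate 2 (0.267) or SAT 24M replicate 2 (0.0707), without the nucleus richest in Glycam1 (0.106), with a looser filter on nuclei (0.179) and with the replicate block (0.0774).

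The 3 other members were too low in endothelial nuclei for the edgeR filter. In SAT 2M replicates 1 and 2, Fut7 had 9 and 1 UMIs, Chst4 had 1 and 4 and Madcam1 had 1 and 0. In SAT 24M all 3 had 0 UMIs in both libraries, and in VAT 24M the endothelial nuclei held 1 Chst4 UMI and none of the other two. With no filter on low counts, edgeR gave an adjusted p of 0.0407 for Fut7, 0.243 for Chst4 and 0.879 for Madcam1 between SAT ages.

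A second source of Fam3d lay in VAT 24M replicate 2. Its 944 epithelial nuclei held 127 Fam3d UMIs (60.4 CPM), in 85 nuclei (95% Clopper-Pearson interval 7.26 to 11%; 4.66% after thinning to 1000 UMIs), against 0 to 2 UMIs in epithelial nuclei of each other library. Among adipocyte nuclei of the same library, 3 of 164 had a Fam3d UMI (1.83%, interval 0.379 to 5.25%; 0.610% after thinning), and over all libraries 0.152% did. Of the 127 epithelial Fam3d UMIs, 86 lay in a cluster led by Ovgp1, the oviduct glycoprotein (88.0 CPM in this library). Another 35 lay in a cluster led by the cilium genes Dnah12 and Dnah6 (84.1 CPM). This is the library with 2446 CPM of ovary or oviduct genes. VAT 24M replicate 1 had 45 epithelial nuclei and 0 Fam3d UMIs, where 3 UMIs would be 51.0 CPM, so a level like that of replicate 2 was at the edge of detection. The summed depot difference was 4.54 ± 1.59 (log2, SE; edgeR adjusted p = 0.591; DESeq2 adjusted p = 0.0348), and it was 0.51 without VAT 24M replicate 2 (edgeR adjusted p = 0.851). It was called by edgeR without VAT 24M replicate 1 (5.49, adjusted p = 0.00597) and with no filter on low counts (4.51, adjusted p = 3.46e-05).

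Most Chst4 UMIs lay in mesothelial nuclei of VAT 24M, those of the lining cells of the peritoneal cavity. By level, mesothelial nuclei (35.3 CPM) lay below the 10 endothelial nuclei rich in Glycam1 (262 CPM, 5 UMIs). They also lay below an unnamed cluster of 129 nuclei (54.5 CPM, 14 UMIs). In VAT 24M, Chst4 had 16 and 144 UMIs, or 38.4 and 37.2 CPM, in 5.53% and 6.96% of 217 and 1595 mesothelial nuclei. After thinning to 1000 UMIs these shares were 2.30% and 3.76%, and a Chst4 UMI was found in 0.140% and 0% of the 2851 and 164 adipocyte nuclei of the same libraries. In SAT it had 0 UMIs in 39, 34, 22 and 53 mesothelial nuclei. The 2 VAT values were close to each other. In SAT 24M mesothelial nuclei 3 UMIs are 23.6 CPM, at least 1.60-fold lower if each UMI were an independent count. This bound pools both SAT 24M libraries and was not computed with 1 left out, so it is weak. Counted by nuclei, 0 of 75 allows up to 4.00%. That is below the 5.53% and 6.96% of VAT 24M but above its thinned shares. The gene did not pass the edgeR filter in this class. Over all nuclei Chst4 had 22 and 183 UMIs in VAT 24M and 3 and 2 in SAT 24M, a log2 difference of 4.77 ± 1.18 (SE; edgeR adjusted p = 0.426; DESeq2 adjusted p = 0.00261). It was 2.87 without VAT 24M replicate 2 (edgeR adjusted p = 0.208), and it was called without VAT 24M replicate 1 (5.58, adjusted p = 0.0105) and with no filter on low counts (4.76, adjusted p = 1.15e-05). Mesothelial nuclei numbered 217 and 1595 in VAT 24M and 22 and 53 in SAT 24M, and the part of their number in the summed difference was not tested.

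Fut7 was read out in immune nuclei of all 6 libraries. It had 9.68 and 10.6 CPM in SAT 2M (40 and 57 UMIs), 16 and 13.7 CPM in SAT 24M (21 and 13 UMIs) and 4.44 and 4.22 CPM in VAT 24M (2 and 7 UMIs). Neither contrast was called, in fits that called 0% of 13558 genes. The log2 difference was 0.61 ± 0.43 for age in SAT (SE, edgeR adjusted p = 0.683). For VAT against SAT it was -1.82 ± 0.53 (SE, edgeR adjusted p = 0.904). By cluster, proliferating nuclei led by Mki67 and Top2a had 41 UMIs (42.3 CPM), and T nuclei led by Scart1 and Il23r, the interleukin-23 receptor, had 32 (20.8 CPM). The proliferating cluster held 15 and 25 of its UMIs in SAT 2M, and the Scart1 cluster had 9, 9, 7 and 7 in the 4 SAT libraries and 0 in both VAT libraries.

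Madcam1 was concentrated in 1 stromal cluster of 356 nuclei that carried FAP markers but was led by Pcdh15, Csmd1, Ccl21a, Cxcl13, Ccl19 and Cr2. Cxcl13 and Ccl19 are chemokines of lymphoid stroma and Cr2 a complement receptor of follicular dendritic cells and B cells. This cluster held 72 of the 114 Madcam1 UMIs in 29 nuclei. By library it had 48 and 17 UMIs in SAT 2M (186 and 65.3 CPM), 6 and 1 in SAT 24M (61.0 and 21.1 CPM) and 0 and 0 in VAT 24M, over 77, 122, 40, 30, 25 and 62 nuclei. The nearest SAT libraries of different age, at 65.3 and 61.0 CPM, lay closer to each other than to the other library of their own age. In all FAP-named nuclei the log2 difference was -1.73 ± 1.06 (SE; edgeR adjusted p = 0.738, 0% of 10489 genes called) for age in SAT, and it was -0.66 without SAT 2M replicate 1, -4.12 without SAT 24M replicate 1 and -0.54 without SAT 24M replicate 2. For VAT against SAT it was -6.10 ± 2.03 (edgeR adjusted p = 0.634, 0.0286% called) and -3.88 without SAT 24M replicate 1. With no filter on low counts it was -6.03 and called (edgeR adjusted p = 0.00431). FAP-named nuclei of VAT 24M held 0 Madcam1 UMIs, so these sizes depend on the prior count.

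**Figure D5:**
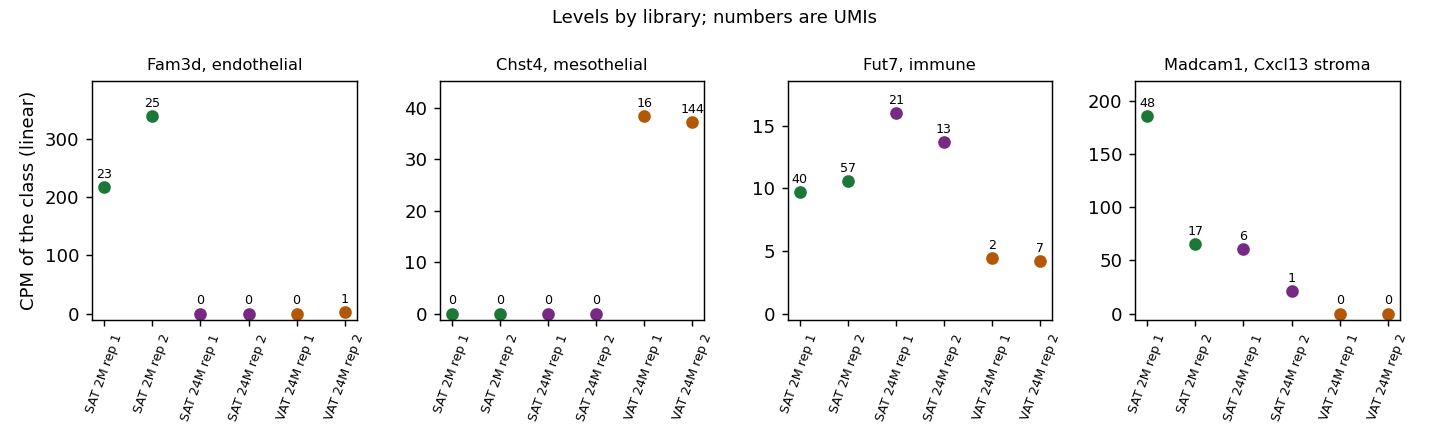
Levels (y axis, CPM of the class, linear) of Fam3d in endothelial, Chst4 in mesothelial, Fut7 in immune and Madcam1 in the Cxcl13-led stromal nuclei, 1 point per library, with its UMIs. Fam3d is present in SAT 2M (217 and 339 CPM), Chst4 in VAT 24M (38.4 and 37.2 CPM), Fut7 in all libraries, and Madcam1 in the 4 SAT libraries.

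The pathway around the members was counted from lists in the endothelial fit of SAT 24M against SAT 2M, where the median log2 difference over all genes was 0.13 and 0.0255% of genes were called. Of the sialomucin scaffolds, 4 of 6 were tested and Glycam1 was the 1 called. Cd34 had 140 ± 47.9 against 153 ± 24.0 CPM at 2 months and Podxl 200 ± 111 against 95.7 ± 77.8 CPM (SD, n = 2 each), neither called. Of 10 ligand enzymes 5 were tested and 0 called, such as Gcnt1 (20.1 ± 23.2 against 61.6 ± 47.2 CPM). Of 10 other venule and adhesion genes 9 were tested and 0 called, such as Enpp2 (143 ± 131 against 308 ± 70.8 CPM) and Selp, an adhesion receptor of platelets and endothelium (117 ± 138 against 96.1 ± 56.0 CPM). All adjusted p were from edgeR, which called none of these lists beside Glycam1.

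No gene of the lymphotoxin and lymph node lists was called by edgeR in the same endothelial sums. The lymphotoxin list, whose signal maintains high endothelial venules, had a median log2 difference of -1.32 with 0 of 7 called (2 at an unadjusted p under 0.05). Relb, a transcription factor of that pathway, had 46.1 ± 12.2 against 256 ± 2.44 CPM (edgeR adjusted p = 0.205) and the ligand gene Ltb 30.8 ± 33.9 against 236 ± 65.5 CPM (0.253). Lymph node genes had a median of -4.29 with 0 of 4 called (4 at an unadjusted p under 0.05), led by Ighd (10.1 ± 7.82 against 264 ± 66.3 CPM, adjusted p = 0.118). Of the FAM3 family, 2 of 4 were tested: Fam3d fell, and Fam3c had 53.0 ± 21.9 against 48.6 ± 11.2 CPM. The T cell-led sub-cluster was 3 and 3 of the endothelial nuclei of SAT 2M and 3 and 7 of SAT 24M, and the part of lymphoid nuclei or free lymphoid RNA in these values was not tested. No ovary or oviduct gene passed the filter in this class.

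The genes most like each member were ranked by Pearson r of log2(CPM + 1) over 44 sums per library and class, which share libraries and depth, among 17949 genes; r is a description. Most like Glycam1 were Creg2 (0.82), Gm16998 (0.74), Treml2 (0.69), Pbk (0.67) and Marco (0.67). Among the members, Glycam1 had r of 0.66 with Fam3d, 0.66 with Fut7, 0.36 with Madcam1 and 0.33 with Chst4. Most like Fam3d were Far2os2 (0.73), Cldn11 (0.68) and Gm42836 (0.66). Most like Chst4 were Gpm6a (0.76), Zdbf2 (0.73) and Prph (0.73). Most like Fut7 were Ighg3 (0.75), Trgc4 (0.73) and Atp6v0a2 (0.72), and most like Madcam1 were Insrr (0.86), Art2a (0.85) and Serpina10 (0.84).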

How the data were processed

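Nuclei were isolated from SAT and VAT by the authors, made into libraries with the Singleron GEXSCOPE kit and sequenced, and reads were aligned to GRCm39 with Celescope; its version and annotation release are not given in the sources used here. The deposited files hold raw UMI counts per gene and barcode (unit: counts). The filters of the study were applied: more than 1000 UMIs and 500 genes per nucleus, and a mitochondrial share below 15%. The nuclei were integrated with an implementation of Harmony written for this work. They were clustered with Leiden (leidenalg 0.10.2) on 1000 variable genes without the 5 members. Clusters were named from marker lists. Scrublet, run in scanpy 1.11.5, marked 36 nuclei (0.133%), a rate at which it has not worked, so doublets stayed in. Counts were summed per library and class (at least 20 nuclei) and tested with edgeR 4.0.16 (quasi-likelihood, TMM, filterByExpr, all 6 libraries, Benjamini-Hochberg, threshold 0.05), with DESeq2 1.42.0 as an alternative. The SE given with edgeR is the log2 difference divided by the root of the quasi-likelihood F statistic. On simulated endothelial sums, with 100 genes changed at each size, edgeR recovered 43.0% of 4-fold and 100% of 16-fold changes. The simulation gave every gene the same preset spread, and changed only genes with enough UMIs, upward and in SAT 24M. These rates need not hold for the real sums, so an uncalled gene may have changed more than 16-fold. The members, lists and tests were chosen with earlier results of these data known. Named genes were the 5 members, up to 4 examples per list (called first, then by smallest adjusted p in endothelial nuclei) and the genes most alike by r; other genes, among them Cd34, Podxl, Enpp2, Selp, Gcnt1, Ccr7 and Fam3c, were chosen for their role after their values were seen. The alternatives are given in the closing section. Results for 1 gene and the list that holds it are not reported here. Depth per library is in the report.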

Additional observations from a re-analysis of the deposited data

Results flagged for a closer look

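Barcodes left out of the kept nuclei for their depth, which enter only the alternative with the looser filter, held Glycam1 above the 3 UMIs that a count of 0 allows. In SAT 2M, 3 such barcodes had 11, 8 and 14 Glycam1 UMIs at total depths of 831, 676 and 509 UMIs. In SAT 24M replicate 1, where kept nuclei had 3 Glycam1 UMIs in all, 1 barcode of 984 UMIs had 15, with 1 Fut7 UMI, 0 UMIs of the endothelial markers and 9.45% mitochondrial UMIs; with the looser filter it clustered with immune nuclei. The cause was not tested.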

How the results depend on the processing

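Values are log2 differences unless named. In endothelial nuclei, SAT 24M against SAT 2M, Glycam1 was -14.10 with DESeq2 and -13.68 with the replicate block, neither called, -12.18 with the looser filter on nuclei and -14.99 to -13.31 with 1 library left out. Fam3d was -9.96 with the block, -7.67 with the looser filter on nuclei and -9.31 without the richest nucleus, none called, and -10.10 to -8.77 with 1 library left out. Over all nuclei, Glycam1 by age was called with DESeq2 (-6.77) and with no filter on low counts (-6.72), and was -5.10 with the looser filter and -7.29 to -5.75 with 1 library left out. By depot it was -0.93 with the looser filter and -5.59 to 1.17 with 1 library left out. The difference of shares was -6.8 percentage points with the looser filter, -10.2 for at least 2 UMIs, and -15.6 to -7.0 with 1 library left out. Other signs that turned, none called, were Chst4 by age over all nuclei (0.16, looser filter), Madcam1 by depot over all nuclei (-0.81; 0.53 without SAT 24M replicate 1, with a range of -2.05 to 0.53 with 1 library left out) and Glycam1 in immune nuclei by depot (-4.79 without VAT 24M replicate 2, with a range of -4.79 to 1.25, and -1.58 with the looser filter). The cause was not tested. The replicate block shares only a number: deviations of same-numbered libraries correlated at -0.27, -0.48 and 0.18 over 21729 genes.

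Genes called in the endothelial age fit were 2, but 76 with DESeq2, 23 without TMM, 251 with no filter, 83 with only the 4 libraries, 0 with the block, 1 with the looser filter, 1 without the richest nucleus and 0 to 7 with 1 library left out. Over all nuclei by age they were 0, but 292 with DESeq2 and 953 with no filter. By depot they were 3, but 522 with DESeq2, 1034 with no filter, 24 with the looser filter, 0 with only the 4 libraries, 0 with the block and 0 to 952 with 1 library left out. In epithelial nuclei by age they were 83, but 254 with the members among the clustering genes, 396 with no filter, 781 with only the 4 libraries, 37 with the block and 0 to 12 with 1 library left out. In immune nuclei by age they were 0, but 124 with DESeq2, 766 with no filter and 47 with the looser filter, and by depot 0, but 12 and 154 with the first 2 of these. In FAP nuclei they were 0 by age, but 6 with DESeq2 and 146 with no filter, and 3 by depot, but 83 and 333, and 0 without TMM, 0 with the block and 0 to 134 with 1 library left out. In adipocyte nuclei by age they were 1761, and 439 or 624 without SAT 2M replicate 2 or 1. Fits in adipocyte, immune and FAP nuclei, fits without the richest nucleus, and those for Stat5a, Ccr7, Ighd and the bounds with 1 library left out, and values without sub-clusters of other cell types, were added after seeing the data. Glycam1 in endothelial nuclei by depot held 0 UMIs in both groups and has no fold, except 1 UMI in each depot with the looser filter. In epithelial nuclei it passed the filter only without SAT 24M replicate 1 (-5.94, edgeR adjusted p = 0.826). The endothelial signal rests on 10 nuclei and 2 libraries a group.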

Other observations

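Outside the endothelium, 2 kept nuclei had at least 5 Glycam1 UMIs. A nucleus of SAT 2M replicate 2 in an immune cluster led by Siglech, a gene of plasmacytoid dendritic cells, had 7 of 2310 UMIs. A nucleus of VAT 24M replicate 2, in an unnamed cluster of that library led by Prap1 and Kctd14, had 8 of 2461 UMIs. The kept nuclei of that library held 16 Glycam1 UMIs in all. The same unnamed cluster of 129 nuclei held 14 Chst4 and 17 Fam3d UMIs (54.5 and 66.2 CPM).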
